A study of Mus musculus with 4 samples.

Results

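The collagen genes are the 44 genes whose symbol is Col, a number, a and a number, of 31017 symbols in the count tables. By the assembly their chains are known for, 11 were classed as fibrillar, 9 as network forming (types IV, VIII and X) and 24 as other. All 44 matched a gene of the mouse annotation GENCODE vM21 by identifier. Their RNA was counted in 4 droplet libraries of single sorted cells from C57BL/6 mice, called vessel progenitor cells in the labels, with 1 library for each of lung P2, fat P2, lung P1 and fat P1. P2 cells were sorted as PDGFRa+ and CD31-, with low CD105 and high Sca1, and P1 cells as PDGFRa- and CD31+, with high CD105 and low Sca1. Cells of both populations were also negative for CD45 and Ter119 and positive for Tie2, a receptor known from endothelial cells. The labels give no age, sex, number of animals or further treatment. With 1 library for each group no difference has a replicate check, so values are compared by size and no test was made.

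Collagens are matrix proteins of 3 chains wound into a triple helix. Fibrillar collagens such as types I, III and V form the cable-like fibrils of connective tissue and are known products of fibroblasts, while type IV collagen is the net-like scaffold of basement membranes, the thin sheets beneath endothelium and epithelium and around fat cells. Type VI forms beaded filaments next to cells. The FACIT collagens bind to the surface of fibrils. Membrane-spanning collagens stay anchored in the cell surface, and types XV and XVIII, the multiplexins, sit in or beside basement membranes.

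Barcodes with at least 1000 UMIs (unique molecular identifiers, each a counted RNA molecule), 500 genes and at most 10% mitochondrial UMIs were used: 1436 in lung P2, 7898 in fat P2, 652 in the lung-labelled P1 library and 1948 in the fat-labelled P1 library. They held 3880015, 43599072, 1118642 and 6510236 UMIs in that order. The P1 libraries went against their tissue labels: Fabp4, which binds fatty acids and is high in vessels of fat, was at 12379 CPM (UMIs of a gene per 1000000 UMIs) in the lung-labelled P1 library and at 94.2 in the fat-labelled P1 library. Foxf1, needed for lung vessel growth, had 3.58 and 716 CPM, and the alveolar surfactant gene Sftpc 0 and 738 CPM. In the P2 libraries Foxf1 had 63.9 CPM in lung and 0.367 in fat, and Sftpc 3824 and 0.138. Values of the comparisons with the P1 libraries exchanged are therefore given where a call depends on them. The sort genes followed their gates in part: Pdgfra was at 447 CPM or more in P2 and at 14.3 or less in P1, and Pecam1, which encodes CD31, at 88.1 or less in P2 and 1223 or more in P1, but Ly6a, which encodes Sca1, was lowest in lung P2, at 205 CPM against 1750.3 or more in the others. A list of 12 endothelial markers summed to 681 CPM in lung P2, 72.2 in fat P2, 11051 in the lung-labelled P1 library and 16393 in the fat-labelled P1 library. A list of 12 fibroblast markers summed to 25893, 51029, 1559 and 178 CPM, with 11, 12, 4 and 1 of them at 100 CPM or more and none at 0. Of the deposited barcodes, 54 were found both in fat P2 and in the lung-labelled P1 library, 20 in both P1 libraries and at most 8 in any other pair. The 10 deepest kept barcodes of fat P2, and likewise of the fat-labelled P1 library, all recurred in another library, and so did 4 of the 10 deepest of lung P2. Kept barcodes that recurred held 2.89% of the UMIs of lung P2, 2.62% of fat P2, 0.120% of the lung-labelled P1 library and 3.00% of the fat-labelled P1 library, and without them 1 collagen call was lost, that of Col14a1 between the P2 libraries.

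Collagen genes took 1.28% of all UMIs in lung P2 and 2.79% in fat P2, against 0.287% in the lung-labelled P1 library and 0.155% in the fat-labelled P1 library. The classes parted: fibrillar genes held 0.848% of all UMIs in lung P2, 2.25% in fat P2, 0.0628% in the lung-labelled P1 library and 0.00728% in the fat-labelled P1 library. Network genes lay within a narrow band, at 0.0996% in lung P2, 0.125% in fat P2, 0.156% in the lung-labelled P1 library and 0.141% in the fat-labelled P1 library. The other types held 0.337%, 0.423%, 0.0682% and 0.00636% in the same order. As a share of collagen UMIs, the network class made up 7.76% in lung P2, 4.48% in fat P2, 54.4% in the lung-labelled P1 library and 91.2% in the fat-labelled P1 library. The fibrillar class made up 66.0%, 80.4%, 21.9% and 4.70%. Collagen RNA was thus mostly fibrillar in P2 of both tissues and mostly of the network class in both P1 libraries. A CPM is relative to the sum of each library. From it alone, fewer cells with collagen RNA, less of it per cell and more of other RNA cannot be told apart. Shares of cells with Col1a1 and levels by cluster are given below.

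**Figure D1:**
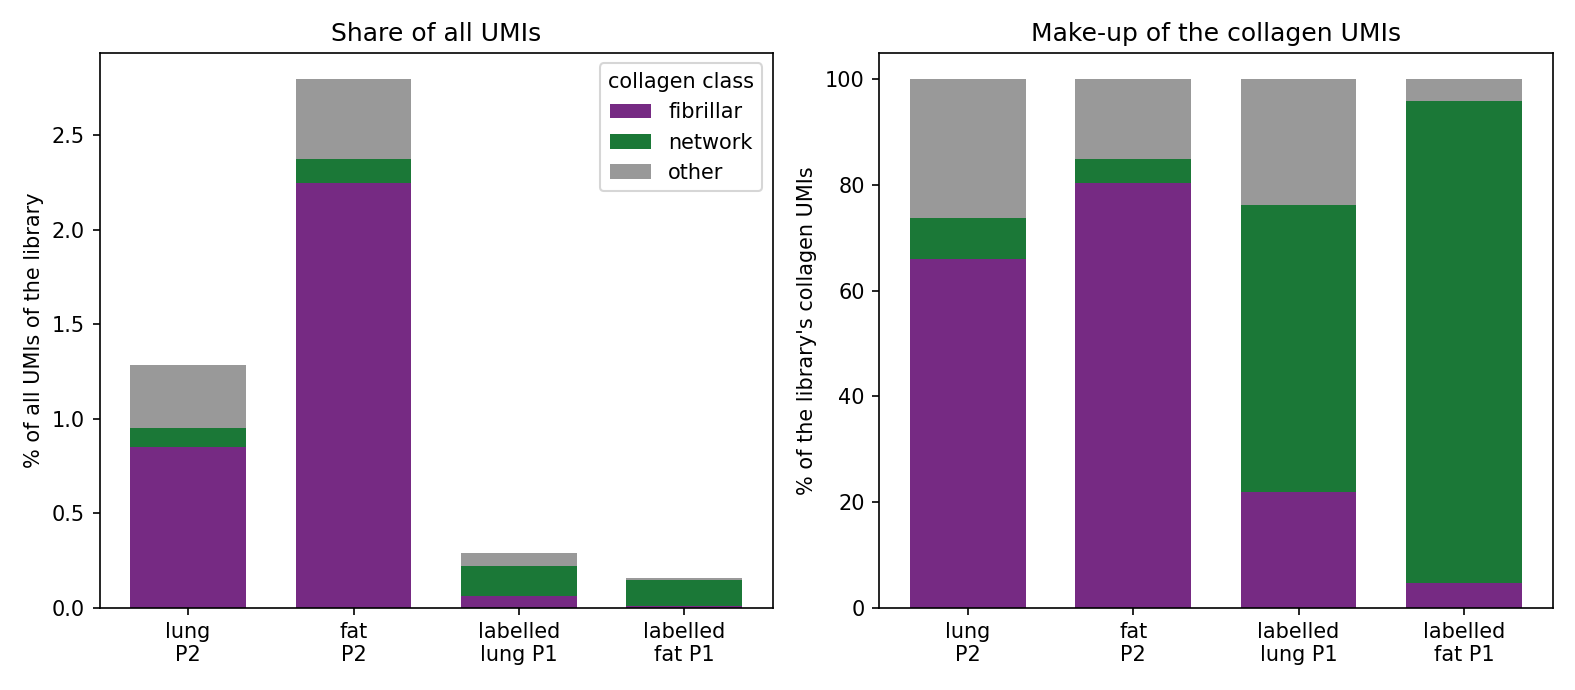
Collagen classes in each library: bars give the share of all UMIs (left, %) and the make-up of the collagen UMIs (right, %), stacked by class, for lung P2, fat P2, labelled lung P1 and labelled fat P1. The fibrillar part reaches 2.25% of UMIs in fat P2, and the network part makes up 91.2% of the collagen UMIs in labelled fat P1.

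Of the 44 genes, 20 reached 50 CPM in at least 1 library, 7 peaked between 10 and 50 CPM and 17 stayed under 10 CPM in all 4. UMIs of 26 were found in every library, and Col19a1, a FACIT chain, had none in any. Among the 20 genes, fat P2 had the highest level of 11, lung P2 of 6, the lung-labelled P1 library of 3 (Col4a1, Col4a2 and Col8a1) and the fat-labelled P1 library of none. With TMM scaling, which divides each library by a factor from edgeR, Col4a1 was instead highest in fat P2, at 954 CPM against 879 in the lung-labelled P1 library. The exact Poisson 95% intervals of genes at 50 CPM or more reached at most 12.6% of the value to either side in lung P2, 3.22% in fat P2, 28.2% in the lung-labelled P1 library and 3.67% in the fat-labelled P1 library. These intervals cover counting error only, not differences between animals or preparations.

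**Figure D2:**
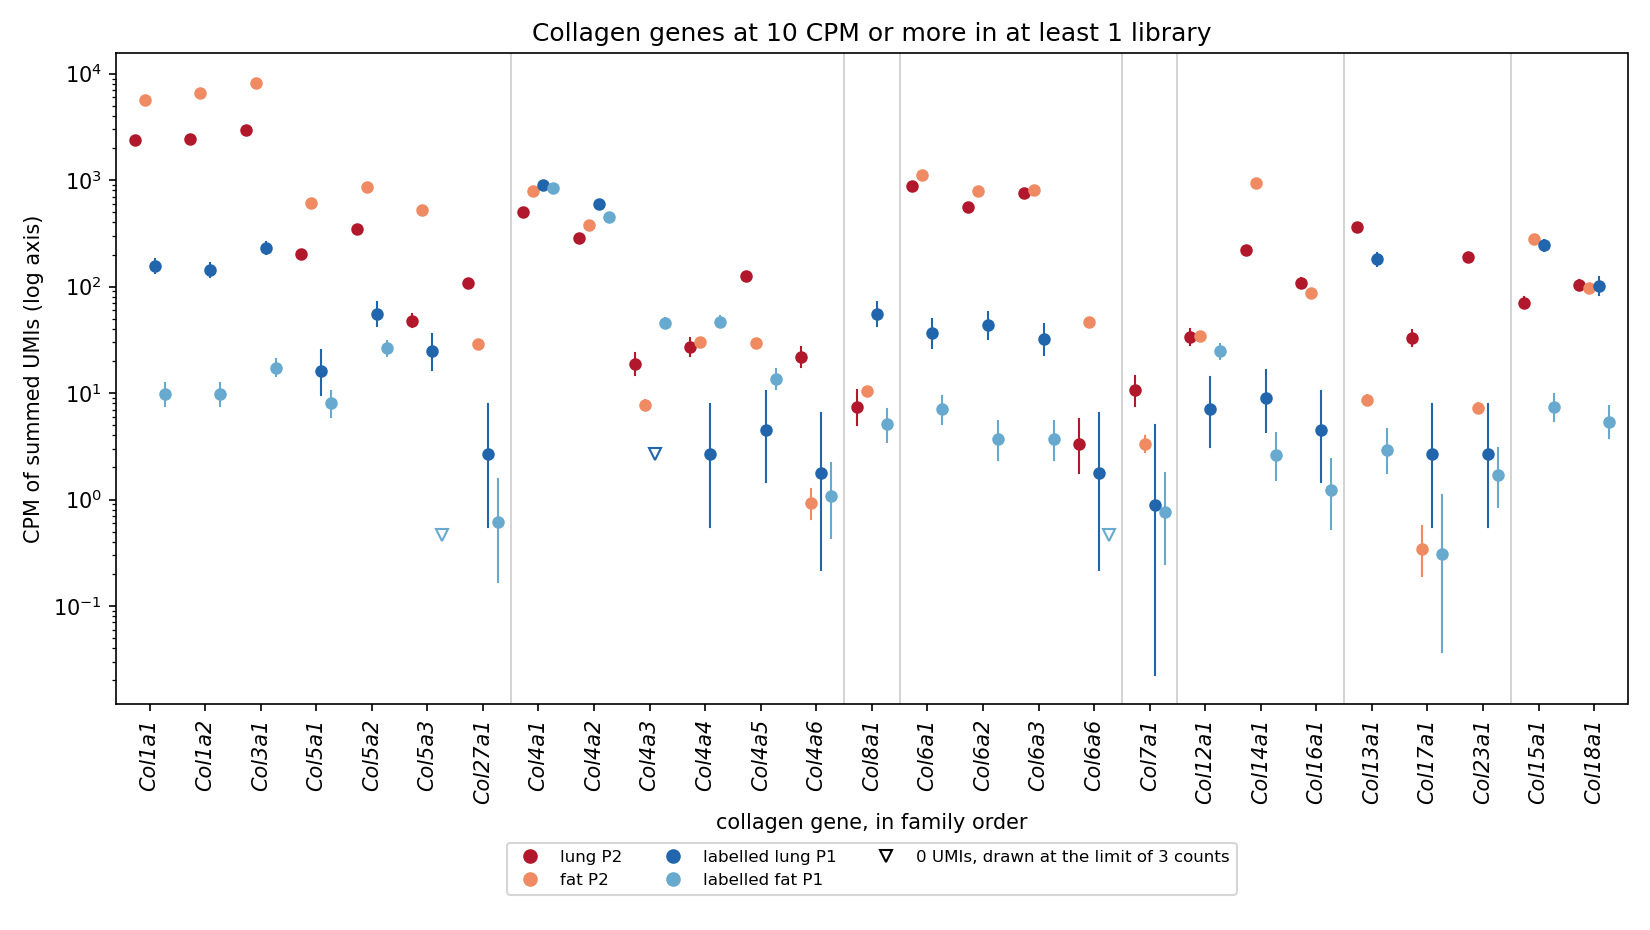
Levels of the 27 collagen genes at 10 CPM or more in at least 1 library: points are CPM of summed UMIs on a log axis, lines are exact Poisson 95% intervals, and open triangles stand for 0 UMIs, drawn at the limit of 3 counts. Fibrillar and type VI genes lie highest in the P2 libraries, while Col4a1 and Col4a2 lie close together in all 4.

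P2 over P1 was compared within each tissue as labelled, which asks how the collagen genes of PDGFRa+ and CD31+ cells differ. A gene was called when its CPM, after 10 CPM had been added to both, differed at least 4-fold, among genes that reached 50 CPM in either library. In lung, 13 of 19 collagen genes measured were higher in P2 and 0 lower, where 11.8% of all genes measured were higher and 8.45% lower. In fat, 13 of 15 were higher in P2 and 0 lower, where 10.1% of all genes were higher and 12.4% lower. The median log2 ratio of the collagen genes was 3.21 in lung, beside 0.12 over all genes, and 5.74 in fat, beside -0.38 over all genes. A gene counts as measured through whichever library is high, so these counts are not shares of all 44 members. Only Col4a1 and Col4a2 reached 50 CPM in the fat-labelled P1 library, so none of the 13 called in fat could have been called lower. Of the 13 called in lung, only Col1a1, Col1a2, Col3a1 and Col5a2 reached 50 CPM in the lung-labelled P1 library. The others could not have been called lower either. The genes called higher in P2 in both tissues were Col1a1, Col1a2, Col3a1, Col5a1, Col5a2, Col6a1, Col6a2, Col6a3, Col14a1 and Col16a1. The share of all genes called in both tissues was not counted, so nothing is read from the size of this overlap. With the P1 libraries exchanged the counts were 16 higher and 0 lower in lung, and 11 higher and 1 lower in fat. Of all genes measured then, 500 of 4853 were higher and 432 lower in lung. In fat, 405 of 4282 were higher and 427 lower. The fibroblast and endothelial marker sums above moved with these ratios, which compare cells of different kinds. Between fibroblast-like cells of P2 and endothelial-like cells of P1 alone, 13 collagen genes were higher in lung and 13 in fat, and Col8a1 was lower in lung. Of all genes measured between these cells, 582 of 4773 were higher and 506 lower in lung. In fat, 499 of 4754 were higher and 602 lower. For the lung-labelled P1 library this choice of cells cannot set cell types apart. Its fibrillar UMIs lay at similar levels in all but 1 of its clusters, as given below.

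**Figure D3:**
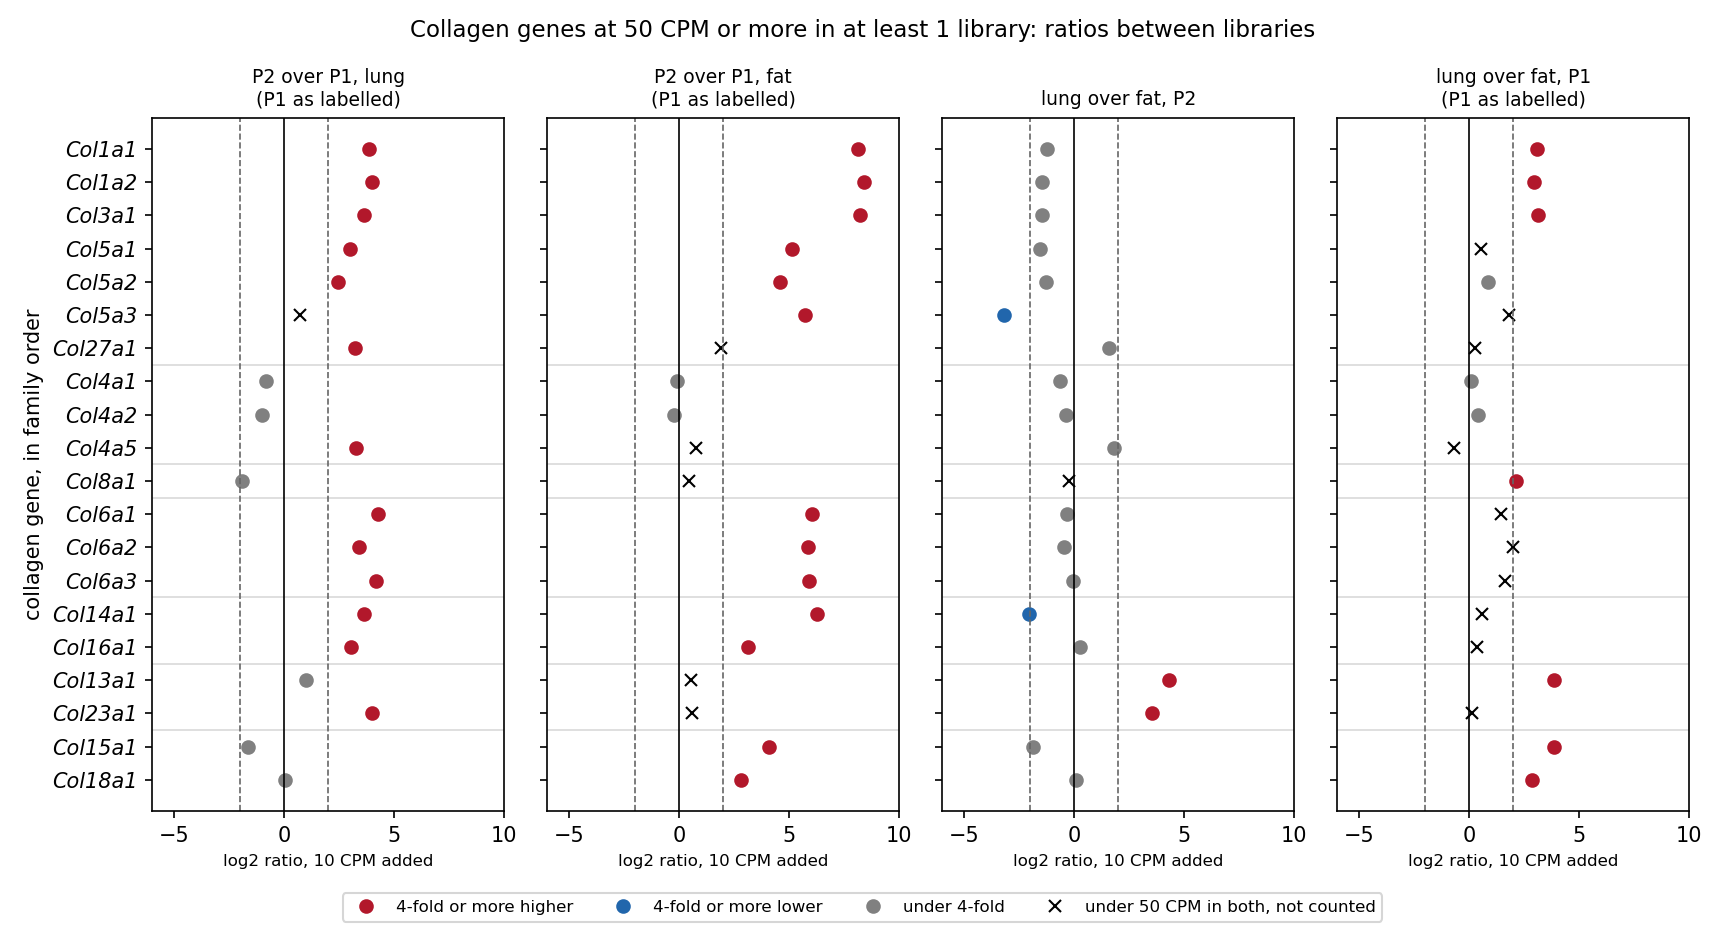
Log2 ratios of CPM, with 10 CPM added, of the 20 collagen genes at 50 CPM or more in at least 1 library, for P2 over P1 in lung and in fat and for lung over fat in P2 and in P1, with the P1 libraries as labelled. Dashed lines mark 4-fold, red and blue points are past it, grey points are not, and crosses are genes under 50 CPM in both libraries. 13 genes lie right of the 4-fold line for P2 over P1 in lung and 13 in fat.

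The fibrillar genes were high in P2 and low in P1. Col1a1, a chain of type I collagen, stood at 2400.0 CPM in lung P2, 5600.3 in fat P2, 156 in the lung-labelled P1 library and 9.83 in the fat-labelled P1 library. Col1a2, its partner chain, stood at 2416 CPM in lung P2, 6623 in fat P2, 144 in the lung-labelled P1 library and 9.83 in the fat-labelled P1 library. Col3a1, the chain of type III collagen, stood at 2959 CPM in lung P2, 8212 in fat P2, 229.7 in the lung-labelled P1 library and 17.4 in the fat-labelled P1 library. All of them were high in both P2 libraries, lower in the lung-labelled P1 library and lowest in the fat-labelled P1 library. For Col1a1 the log2 ratio of P2 over P1 was 3.86 in lung and 8.14 in fat, and for Col3a1 it was 3.63 and 8.23. The chains of type V, which co-assembles with type I and is known to limit fibril width, followed. Col5a1 stood at 200.3 CPM in lung P2, 613 in fat P2, 16.1 in the lung-labelled P1 library and 7.99 in the fat-labelled P1 library. Col5a2 stood at 350.0 CPM in lung P2, 868 in fat P2, 55.4 in the lung-labelled P1 library and 26.3 in the fat-labelled P1 library. Col5a3, a less widespread type V chain, stood at 47.9 CPM in lung P2, 523 in fat P2 and 25.03 in the lung-labelled P1 library, and had 0 UMIs in the fat-labelled P1 library, which allows up to 0.461 CPM. Col27a1, a fibrillar chain known from cartilage, stood at 107 CPM in lung P2, 29.2 in fat P2, 2.68 in the lung-labelled P1 library and 0.614 in the fat-labelled P1 library. In each tissue, 6 of 6 fibrillar genes measured were higher in P2, with Col27a1 among them in lung and Col5a3 in fat. Of all genes measured, 11.8% were higher in P2 in lung and 10.1% in fat. All 6 in fat, and Col5a1 and Col27a1 in lung, reached 50 CPM in P2 only, so they could not have been called lower. The remaining fibrillar genes, Col2a1, Col11a1, Col11a2 and Col24a1, stayed under 10 CPM everywhere.

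The chains of type I collagen, which share 1 triple helix, were counted in nearly equal numbers. Col1a2 UMIs per Col1a1 UMI were 1.01 (0.978 to 1.04) in lung P2, 1.183 (1.176 to 1.189) in fat P2, 0.925 (0.742 to 1.15) in the lung-labelled P1 library and 1.0 (0.696 to 1.44) in the fat-labelled P1 library, with 95% counting intervals in parentheses. The ratio was higher in fat P2 than in lung P2 with no overlap of these intervals. Col5a2 per Col5a1 was 1.75 (1.60 to 1.91) in lung P2 and 1.42 (1.39 to 1.44) in fat P2, against 3.44 (2.01 to 6.19) in the lung-labelled P1 library and 3.29 (2.40 to 4.58) in the fat-labelled P1 library. The P1 libraries thus held relatively more Col5a2 than the P2 libraries of the same labelled tissue. The capture of each gene by its 3' end can differ, so only the change of a ratio between libraries is read.

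After each cell had been thinned to 1000 UMIs, Col1a1 was found in 70.7% of cells of lung P2, 93.9% of fat P2, 13.5% of barcodes of the lung-labelled P1 library and 0.308% of the fat-labelled P1 library. Unthinned, these shares were 85.4%, 98.5%, 23.01% and 0.821%. As background, 0 of 1040 endothelial-like cells of the fat-labelled P1 library held Col1a1 after thinning, which allows up to 0.288%. Their median depth was 3258 UMIs, against 2150.0 in lung P2, 5152 in fat P2, 1561 in the lung-labelled P1 library and 2964 in the fat-labelled P1 library. In the 17 endothelial-like cells of fat P2 the share was 47.1%, at 2402 median UMIs, so a Col1a1 UMI alone did not mark a cell of that library as fibroblast-like. Barcodes of fat P2 in the clusters led by the leukocyte genes Cd74 and Ccl5 (51 cells) and by Nppc and Chodl with the muscle stem cell gene Pax7 (45 cells) also had Col1a1, at 2889 and 1909 CPM. Their Col4a1 levels were 516 and 333 CPM, and the part of free RNA and of doublets in these levels was not tested.

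The fibrillar UMIs of the lung-labelled P1 library were spread over 10 of its 11 clusters at similar levels, 563 to 801 CPM. The other, led by Car3, a gene known from fat cells and muscle (19 barcodes, 2.91% of them), held 4 of 703 fibrillar UMIs, or 59.0 CPM. Its network genes stood at 2464 CPM, against 1242 to 1673 in the 10 others, so this small cluster stood apart in both classes. Col3a1 was found in 19.2% of the library's barcodes with a UMI of Pecam1 and in 20.7% of those without. In lung P2 the same shares were 14.3% (of 21 barcodes) and 76.3%, and in the fat-labelled P1 library 0.191% and 1.86%. The variance of Col3a1 over thinned barcodes was 1.08 times that of a binomial draw in the lung-labelled P1 library, against 5.12 times in lung P2, 6.71 times in fat P2 and 4.75 times in the fat-labelled P1 library. Apart from the Car3 cluster, the fibrillar genes of this library thus varied little between clusters. This was not particular to fibrillar genes, since the same variance was 1.01 times binomial for Col4a1 and 1.04 times for Col15a1. Col4a1 was found in 58.6% of its barcodes with Pecam1 and in 53.9% of those without. Whether the barcodes of the lung-labelled P1 library are single cells was not tested. Its Col1a1, Col1a2 and Col3a1 levels were 2.78%, 2.17% and 2.80% of those in fat P2. The 12 fibroblast markers lay between 1.13% and 26.3% of fat P2 there, while Col15a1 was at 87.0% and Col4a1 at 113%. Set against lung P2, Col1a1, Col1a2 and Col3a1 were at 6.5%, 6.0% and 7.8%. The markers then lay between 0.816% (Pdgfra) and 86.4% (Lum), with Col15a1 at 347% and Col4a1 at 179.5%. The part of free RNA in these values was not tested.

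The type IV genes lie in head-to-head pairs whose starts face away from one another on opposite strands. Col4a1 and Col4a2, whose products form the type IV network of vessel walls, start 21 bases apart on chromosome 8 and share 22 bases in the annotation. Col4a3 and Col4a4 start 72 bases apart on chromosome 1, and Col4a5 and Col4a6 1309 bases apart on chromosome X. The promoter windows of Col4a1, Col4a2 and Col4a4 are shown because Col4a1 and Col4a2 ran nearly in parallel between the libraries, as given below, while Col4a3 and Col4a4 did so only in part, and that of Col1a2 as a fibrillar gene for comparison. Each runs from 250 bases before to 50 after the start, 5' to 3' on the strand of the gene, from RefSeq on GRCm38. Capitals mark the motifs searched on both strands, and no match overlaps another in these windows. They are the CCAAT box, read as CCAAT or from the other strand as ATTGG, the GC box, read as GGGCGG or as its complement CCGCCC, and the TATA box, read as TATAAA or as its complement TTTATA.
Col4a1 (GRCm38 chr8:11312777-11313076, minus strand): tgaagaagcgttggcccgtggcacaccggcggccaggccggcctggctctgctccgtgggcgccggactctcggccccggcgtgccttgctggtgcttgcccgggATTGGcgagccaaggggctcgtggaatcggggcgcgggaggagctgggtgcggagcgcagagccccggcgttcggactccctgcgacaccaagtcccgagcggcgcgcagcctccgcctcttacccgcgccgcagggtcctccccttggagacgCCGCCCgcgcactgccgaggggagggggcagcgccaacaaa
Col4a2 (GRCm38 chr8:11312555-11312854, plus strand): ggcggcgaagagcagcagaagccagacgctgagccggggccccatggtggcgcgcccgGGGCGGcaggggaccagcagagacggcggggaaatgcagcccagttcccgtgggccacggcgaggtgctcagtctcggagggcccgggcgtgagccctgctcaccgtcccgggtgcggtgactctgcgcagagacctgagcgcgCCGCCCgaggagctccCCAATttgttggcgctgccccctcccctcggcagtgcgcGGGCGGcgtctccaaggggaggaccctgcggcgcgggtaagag
Col4a4 (GRCm38 chr1:82586800-82587099, minus strand): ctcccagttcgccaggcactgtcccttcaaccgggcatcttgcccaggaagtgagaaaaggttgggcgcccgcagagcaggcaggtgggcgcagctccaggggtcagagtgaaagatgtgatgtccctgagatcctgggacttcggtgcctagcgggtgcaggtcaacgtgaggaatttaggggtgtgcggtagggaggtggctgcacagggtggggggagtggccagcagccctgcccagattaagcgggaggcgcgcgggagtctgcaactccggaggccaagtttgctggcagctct
Col1a2 (GRCm38 chr6:4505368-4505667, plus strand): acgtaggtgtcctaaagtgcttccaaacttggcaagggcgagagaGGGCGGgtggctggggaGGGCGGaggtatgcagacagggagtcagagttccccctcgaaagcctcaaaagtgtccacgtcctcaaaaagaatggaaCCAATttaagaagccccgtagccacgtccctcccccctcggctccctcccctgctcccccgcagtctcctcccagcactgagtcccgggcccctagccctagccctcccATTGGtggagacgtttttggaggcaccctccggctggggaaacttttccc
The windows of Col4a1 and Col4a2 share 78 bases, and the GC box match just after both starts is the same stretch, at chr8:11312812-11312817. The window of Col4a4 also holds the annotated start of Col4a3 and none of the motifs searched. A match is a string of letters and not a shown binding site. A CCAAT box was in 37.4% of 32851 mouse promoter windows of this length and in 13 of 38 windows of collagen genes (35 genes had one). A GC box was in 35.7% and in 23 of 38, and a TATA box in 13.6% and in 5 of 38.

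Col4a1 and Col4a2 differed far less between the libraries than the fibrillar genes. Col4a1 stood at 503 CPM in lung P2, 797 in fat P2, 903 in the lung-labelled P1 library and 846 in the fat-labelled P1 library. Col4a2 stood at 286 CPM in lung P2, 377 in fat P2, 594 in the lung-labelled P1 library and 453 in the fat-labelled P1 library. In the lung-labelled P1 library Col4a1 was at 179.5% of its level in lung P2, the lowest, and neither gene was called in any of the 4 comparisons. For Col4a1 the log2 ratio of P2 over P1 was -0.83 in lung and -0.09 in fat, and that of Col4a2 was -1.03 and -0.26. With TMM scaling the ratios in fat changed sign, to 0.29 and 0.11. Col4a2 UMIs per Col4a1 UMI were 0.568 (0.527 to 0.611) in lung P2, 0.473 (0.465 to 0.482) in fat P2, 0.658 (0.596 to 0.727) in the lung-labelled P1 library and 0.536 (0.513 to 0.561) in the fat-labelled P1 library. The Col4a1 intervals of the P1 libraries overlapped, at 848 to 960.3 CPM in the lung-labelled P1 library and 824 to 868 in the fat-labelled P1 library. Levels of the same order came from different cells, since Col4a1 stood at 929.9 CPM over the fibroblast-like cells of fat P2 and at 837 over the endothelial-like cells of the fat-labelled P1 library.

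The other type IV chains belong to networks known from lung alveoli, kidney filters and epithelia. Col4a3 stood at 18.8 CPM in lung P2, 7.68 in fat P2 and 45.6 in the fat-labelled P1 library, and had 0 UMIs in the lung-labelled P1 library, which allows up to 2.68 CPM. Col4a4 stood at 27.3 CPM in lung P2, 29.9 in fat P2, 2.68 in the lung-labelled P1 library and 46.8 in the fat-labelled P1 library. Neither reached 50 CPM in a library, so neither was counted as measured. Both were higher in the fat-labelled P1 library than in either P2 library, and at or near 0 in the lung-labelled P1 library. Between the P2 libraries the ratio of the pair differed. Col4a4 UMIs per Col4a3 UMI were 1.45 (1.07 to 1.98) in lung P2, 3.89 (3.45 to 4.40) in fat P2 and 1.03 (0.872 to 1.21) in the fat-labelled P1 library. In lung P2, 8 barcodes of the epithelial-like cluster led by Ager held 44 of 73 Col4a3 UMIs and 42 of 106 Col4a4 UMIs. Another 2 barcodes of that cluster held 18 and 28. In the fat-labelled P1 library, 20 of 1948 barcodes, all in a cluster led by Ager, held 289 of 297 Col4a3 UMIs and 301 of 305 Col4a4 UMIs. The library ratios therefore do not compare like cells. Over the fibroblast-like cells of lung P2, Col4a4 was the higher of the pair, as given below. Over 12 clusters of fat P2 with at least 20 UMIs of the pair, the lowest ratio was 2.03 (67 UMIs of Col4a4 and 33 of Col4a3). The highest was 62.0 (124 and 2 UMIs), with a counting interval of 16.8 to 518. Col4a5 stood at 127 CPM in lung P2, 29.3 in fat P2, 4.47 in the lung-labelled P1 library and 13.5 in the fat-labelled P1 library. It was called higher in P2 in lung, with a log2 ratio of 3.24, and reached 50 CPM in lung P2 only, so it could not have been called lower. Col4a6 stood at 21.9 CPM in lung P2, 0.917 in fat P2, 1.79 in the lung-labelled P1 library and 1.08 in the fat-labelled P1 library, so that lung P2 was the highest of the 4 for both genes of the X chromosome pair.

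Type VI collagen, the beaded filament around cells, followed the fibrillar genes. Col6a1 stood at 890.0 CPM in lung P2, 1116 in fat P2, 36.7 in the lung-labelled P1 library and 7.07 in the fat-labelled P1 library. Col6a2 stood at 562 CPM in lung P2, 784 in fat P2, 43.8 in the lung-labelled P1 library and 3.69 in the fat-labelled P1 library. Col6a3 stood at 761 CPM in lung P2, 801 in fat P2, 32.2 in the lung-labelled P1 library and 3.69 in the fat-labelled P1 library. These 3 chains were called higher in P2 in both tissues, with log2 ratios of 4.27, 3.41 and 4.19 in lung and 6.04, 5.86 and 5.89 in fat, in the order Col6a1, Col6a2, Col6a3. All 3 were under 50 CPM in P1, so they could not have been called lower. Of all genes measured, 11.8% were higher in P2 in lung and 10.1% in fat. Col6a3 UMIs per Col6a1 UMI were 0.855 (0.813 to 0.898) in lung P2 and 0.718 (0.708 to 0.728) in fat P2. The alternative chain Col6a6 stood at 3.35 CPM in lung P2, 46.2 in fat P2 and 1.79 in the lung-labelled P1 library, with 0 UMIs in the fat-labelled P1 library. Col6a5 had 8 UMIs in lung P2 and 159 in fat P2 and none in either P1 library, and Col6a4 had 6 UMIs, all in fat P2.

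Among the FACIT genes, Col14a1, whose product lies on type I fibrils, stood at 223 CPM in lung P2, 947 in fat P2, 8.94 in the lung-labelled P1 library and 2.61 in the fat-labelled P1 library. Col16a1 stood at 109 CPM in lung P2, 87.7 in fat P2, 4.47 in the lung-labelled P1 library and 1.23 in the fat-labelled P1 library. Both were called higher in P2 in both tissues, but reached 50 CPM in P2 only, so neither could have been called lower. Col12a1, a FACIT chain of tendon and muscle sheaths, differed from them and stood at 33.8 CPM in lung P2, 34.0 in fat P2, 7.15 in the lung-labelled P1 library and 24.7 in the fat-labelled P1 library. It stayed under 50 CPM everywhere, and its level in the fat-labelled P1 library lay near those of the P2 libraries. The short-chain gene Col8a1, known from vessel walls, stood at 7.47 CPM in lung P2, 10.4 in fat P2, 55.4 in the lung-labelled P1 library and 5.07 in the fat-labelled P1 library. Only the lung-labelled P1 library was high, and P2 over P1 in lung had a log2 ratio of -1.91, just under 4-fold. Its partner chain Col8a2 had 20 UMIs in lung P2 and 12 in fat P2, and none in either P1 library. Col7a1, the anchoring fibril gene, stood at 10.6 CPM in lung P2, 3.33 in fat P2, 0.894 in the lung-labelled P1 library and 0.768 in the fat-labelled P1 library, low throughout.

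Of the membrane-spanning genes, Col13a1, Col17a1 and Col23a1 were highest in lung P2. Col13a1, known from cell-matrix contacts, stood at 362 CPM in lung P2, 8.65 in fat P2, 179.7 in the lung-labelled P1 library and 2.92 in the fat-labelled P1 library. Col23a1 stood at 191 CPM in lung P2, 7.22 in fat P2, 2.68 in the lung-labelled P1 library and 1.69 in the fat-labelled P1 library. Col17a1, known from epithelial anchoring plaques, stood at 33.0 CPM in lung P2, 0.344 in fat P2, 2.68 in the lung-labelled P1 library and 0.307 in the fat-labelled P1 library. Among clusters of lung P2 cells, Col23a1 stood at 406 CPM in that led by Adh7 and Hmcn2 and 103 in that led by Dcn and Scara5, while Col17a1 stood at 51.8 CPM in that led by Apoc1 and Cdkn2c and 0 in the epithelial-like one led by Ager. Unlike the others, Col13a1 was also high in the lung-labelled P1 library. It was not called for P2 over P1 in lung as labelled, at 0.97. With the P1 libraries exchanged it was called higher in P2 in lung, at 4.85, and lower in P2 in fat. The multiplexin Col15a1, a gene of basement membrane zones, stood at 70.6 CPM in lung P2, 282 in fat P2, 245 in the lung-labelled P1 library and 7.37 in the fat-labelled P1 library. Col18a1, whose product yields the fragment endostatin, stood at 104 CPM in lung P2, 96.4 in fat P2, 102 in the lung-labelled P1 library and 5.38 in the fat-labelled P1 library. Their ratios of P2 over P1 parted by tissue label. For Col15a1 the log2 ratio was -1.66 in lung and 4.07 in fat, and for Col18a1 0.03 and 2.79. With the P1 libraries exchanged it was 2.21 in lung and 0.19 in fat for Col15a1, and 2.89 and -0.07 for Col18a1. Lung-labelled and fat-labelled ratios of both genes therefore trade places with the labels. The Col18a1 intervals of lung P2, fat P2 and the lung-labelled P1 library overlapped.

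Lung over fat was compared within P2, whose tissue labels the marker genes did not contradict. Of 19 collagen genes measured, 2 were at least 4-fold higher in lung and 2 at least 4-fold lower, where 8.24% of all genes measured were higher and 4.79% lower. Both genes higher in lung span the membrane, Col13a1 with a log2 ratio of 4.32 and Col23a1 with 3.54. Those lower in lung were the type V chain Col5a3, at -3.20, and the FACIT gene Col14a1, at -2.04. Col13a1 and Col23a1 were under 50 CPM in fat P2 and Col5a3 in lung P2, so each could be called in only 1 direction. Col14a1 lay at the edge of 4-fold and passed below it with 50 CPM added (-1.87), among fibroblast-like cells alone (-1.87) and without barcodes shared between libraries (-1.995). The remaining 15 were not called. Col15a1 was next on the lower side at -1.86, and passed 4-fold with TMM scaling (-2.20) and with a mean over cells (-2.20). The mean over cells gave 3 genes lower in lung, where 262 of all 4384 genes measured were lower. Col4a5 was next on the higher side at 1.80, and passed 4-fold with 1 CPM added (2.08). That gave 3 genes higher, where 437 of all 4323 genes measured were higher. Col27a1 stood at 1.58. Col16a1 and Col18a1 stood at 0.28 and 0.10, and at -0.05 and -0.23 with TMM scaling. Col1a1, Col1a2 and Col3a1 had -1.22, -1.45 and -1.47, and Col6a1, Col6a2 and Col6a3 -0.32, -0.47 and -0.07, the last 0.05 with a mean over cells. The median over the collagen genes was -0.47, beside 0.15 over all genes. Scaling by TMM factors moved the median of all genes to -0.27, the share of higher among called genes to 48.1% (against 63.2%), and the collagen genes lower in lung to 4, with Col6a6 and Col15a1 added. Of all 4493 genes measured under that scaling, 307 were lower in lung. The library of lung P2 also held more epithelial RNA, with 8 epithelial markers summing to 4263 CPM against 91.1 in fat P2, and its part in these ratios was not tested.

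Lung over fat in P1 rests on the contradicted labels. As labelled, 7 of 10 collagen genes measured were higher in lung and 0 lower, where 5.28% of all genes were higher and 5.71% lower. Only Col4a1 and Col4a2 reached 50 CPM in the fat-labelled P1 library, so all 7 were measured through the lung-labelled P1 library alone. The 7 were Col1a1, Col1a2, Col3a1, Col8a1, Col13a1, Col15a1 and Col18a1, with log2 ratios of 3.06, 2.96, 3.13, 2.12, 3.88, 3.88 and 2.86. Exchanged, the same genes were lower in lung. Col4a1, Col4a2 and Col5a2 were measured and not called, at 0.09, 0.38 and 0.85. With a minimum of 20 CPM, Col4a3 and Col4a4 were measured too and were called lower in lung as labelled. Nearly all their UMIs in the fat-labelled P1 library lay in its small cluster led by Ager. Of all 7900 genes measured at that minimum, 289 were lower. In CPM, Col15a1 was 33.2 times and Col13a1 61.6 times as high in the lung-labelled P1 library as in the fat-labelled P1 library. The 12 fibroblast markers summed to 1559 and 178 CPM in these libraries and moved with Col1a1, Col1a2 and Col3a1, and their part in the difference was not tested.

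To see which cells held each gene, barcodes of each library were clustered on variable genes from which all collagen genes had been left out, so the clusters do not fix collagen levels. In fat P2 the 13 fibroblast-like clusters fell into 6 with more Col4a1 and Col15a1 and 7 with less. The 6 had 677 to 2772 CPM of Col4a1, 270.3 to 2047 of Col15a1 and 291 to 903 of Col14a1. The 7 had 70.3 to 303 CPM of Col4a1, 4.92 to 18.6 of Col15a1 and 898 to 1687 of Col14a1, so that the ranges of Col4a1 and of Col15a1 did not meet and those of Col14a1 nearly parted the other way. This grouping was made after the values had been seen. Col4a1 was high in the cluster led by Nrep and Aoc3 (862 cells, 2772 CPM), in that led by Igfbp2 and Hc (736 cells, 1680.4), in that led by Cilp and Thbs4 (338 cells, 1586) and in that led by Scg3 and H19 (654 cells, 1144). It was lowest in the cluster led by Dmkn and Krtdap (684 cells), at 70.3 CPM, and stood at 127 in that led by Mrgprg, Smpd3 and Pi16 (695 cells), Pi16 being a known marker of fibroblasts around vessels. Col14a1 stood at 1444 and 1525 CPM in the Dmkn and Pi16 clusters, against 310.3 in the Nrep cluster and 307 in the Igfbp2 cluster. Col15a1 had 761.9 CPM in the Nrep cluster, 899.7 in the Igfbp2 cluster and 538 in the Cilp cluster, against 4.92 in the Dmkn cluster. Col18a1 stood at 184, 443, 65.9 and 9.84 CPM in these clusters, in that order.

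Col3a1 spanned a narrower range than Col4a1 over these clusters. It ranged from 4378 to 14220.0 CPM, with the cluster led by Sult1e1 and Il1r2 highest. Col5a3 and Col6a3 peaked in the Nrep cluster, at 1567 and 1946 CPM, against 179.6 and 352 in the Dmkn cluster. Col6a3 UMIs per Col6a1 UMI were 1.08 (1.05 to 1.11) in the Nrep cluster and 0.582 (0.560 to 0.605) in the Igfbp2 cluster. Col6a6 peaked in the Cilp cluster, at 169 CPM, which also had 156 of Col8a1, while the Nrep cluster had 40.6 and 1.24. Col13a1, low in fat P2 as a whole, stood at 70.0 CPM in the Igfbp2 cluster and 0.468 in the Dmkn cluster.

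**Figure D4:**
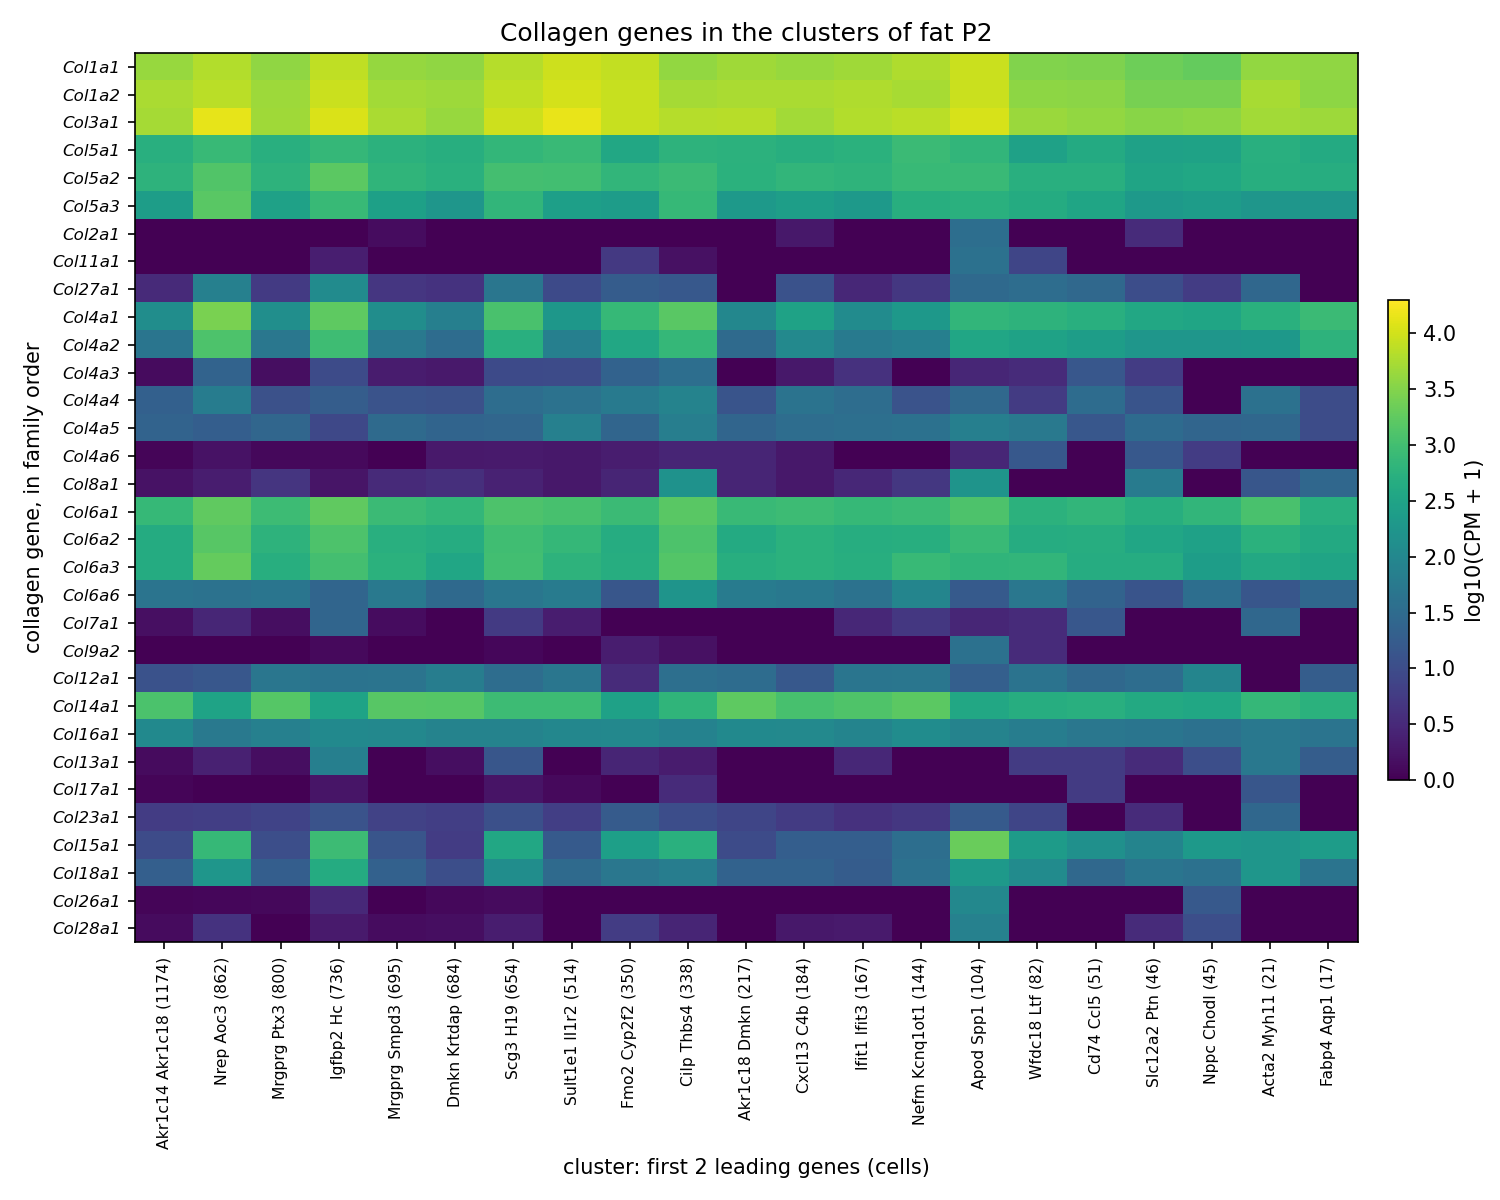
Collagen genes (rows, in family order) in the clusters of fat P2 (columns, at least 15 cells, largest left, named by 2 leading genes with the number of cells): colour is log10 of CPM plus 1. Col4a1, Col4a2 and Col15a1 are bright in the Nrep, Igfbp2, Scg3 and Cilp clusters and dark in the Dmkn cluster, and Col2a1, Col9a2, Col11a1, Col26a1 and Col28a1 appear in the Apod cluster.

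Cell by cell the same pattern held after thinning to 1000 UMIs. Of 2637 fat P2 cells with Col4a1, 47.1% (45.2 to 49.1, exact Clopper-Pearson 95% interval) also held Col4a2, against 9.31% (8.54 to 10.1) of 5261 cells without it. Col15a1 was found in 37.1% and 6.71% of these cells, and Col18a1 in 15.6% and 4.32%. Col14a1 went the other way, with 35.8% of cells with Col4a1 and 61.2% of cells without. In the fat-labelled P1 library, where Col4a1 was present in every cluster, 36.7% of cells with Col4a1 held Col4a2 and 25.8% of those without. Cells of 1 library are not replicates, so these shares describe each library only.

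A cluster of 104 fat P2 cells led by Apod, Spp1 and Vwa1 held collagen genes that were near 0 in most of the library. It had 34.8 CPM of Col2a1, 38.7 of Col9a2 and 38.7 of Col11a1, which are chains known from cartilage, and 103 of Col26a1 and 77.4 of Col28a1. It also had the highest Col15a1 of the fibroblast-like clusters, at 2047 CPM, and 166 CPM of Col8a1. Of the library's UMIs, it held 85.7% for Col2a1, 76.9% for Col9a2 and 73.6% for Col26a1, against 1.19% of all UMIs. These counts are small, with 21 UMIs of Col2a1 and 72 of Col26a1 in the whole library. Col2a1, Col11a1 and Col26a1 had 0 UMIs in the other 3 libraries.

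In lung P2 the split was between Col13a1 on the one side and Col14a1 and Col15a1 on the other. Of the fibroblast-like clusters of at least 50 cells, 8 had Col13a1 at 324 to 571 CPM. The last, led by Dcn, Scara5 and Serpinf1 with Pi16 among its leading genes (90 cells), had 31.6. That cluster instead had the highest Col14a1, at 1399.6 CPM, and the highest Col1a1 and Col3a1, at 7688 and 8785 CPM, against 4.57, 1482 and 1819 in the cluster led by Apoc1 and Cdkn2c (186 cells). Col15a1 stood at 345 CPM there and at 3.05 in the Apoc1 cluster. The cluster led by Adh7 and Hmcn2 (74 cells) had both sides, with 324 CPM of Col13a1, 578 of Col14a1, 378 of Col15a1 and 406 of Col23a1. It also had the highest Col4a5 and Col6a1 of the library, at 324 and 1754 CPM. Of 154 thinned cells with Col14a1, 20.1% (14.1 to 27.3) held Col15a1, against 2.34% (1.58 to 3.32) of cells without. Of 426 cells with Col13a1, 5.40% held Col14a1, against 12.97% of cells without. The Col13a1 side of the split depended on the clustering. At Leiden resolution 0.5 the fibroblast-like clusters had 149 to 563 CPM of Col13a1, and with 50 neighbours 150.4 to 562, against 31.6 to 571 above. For Col14a1 the ranges were 9.27 to 1073 and 6.31 to 1071 CPM in these clusterings.

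Network genes of lung P2 lay outside the fibroblast-like cells as well as in them. In the mural-like cluster (74 cells, led by Postn, Cox4i2 and Notch3) Col4a1 stood at 1185 CPM and Col4a2 at 773, the highest of the library, against 340.2 to 567 CPM of Col4a1 over the fibroblast-like clusters of at least 50 cells. The mural-like cluster also held Col8a1 at 142 CPM and Col7a1 at 64.4. Col4a3 and Col4a4 stood at 543 and 613 CPM in the epithelial-like cluster of 20 cells led by Ager, a gene of flat alveolar cells, and at 3.27 and 10.1 over the fibroblast-like cells.

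**Figure D5:**
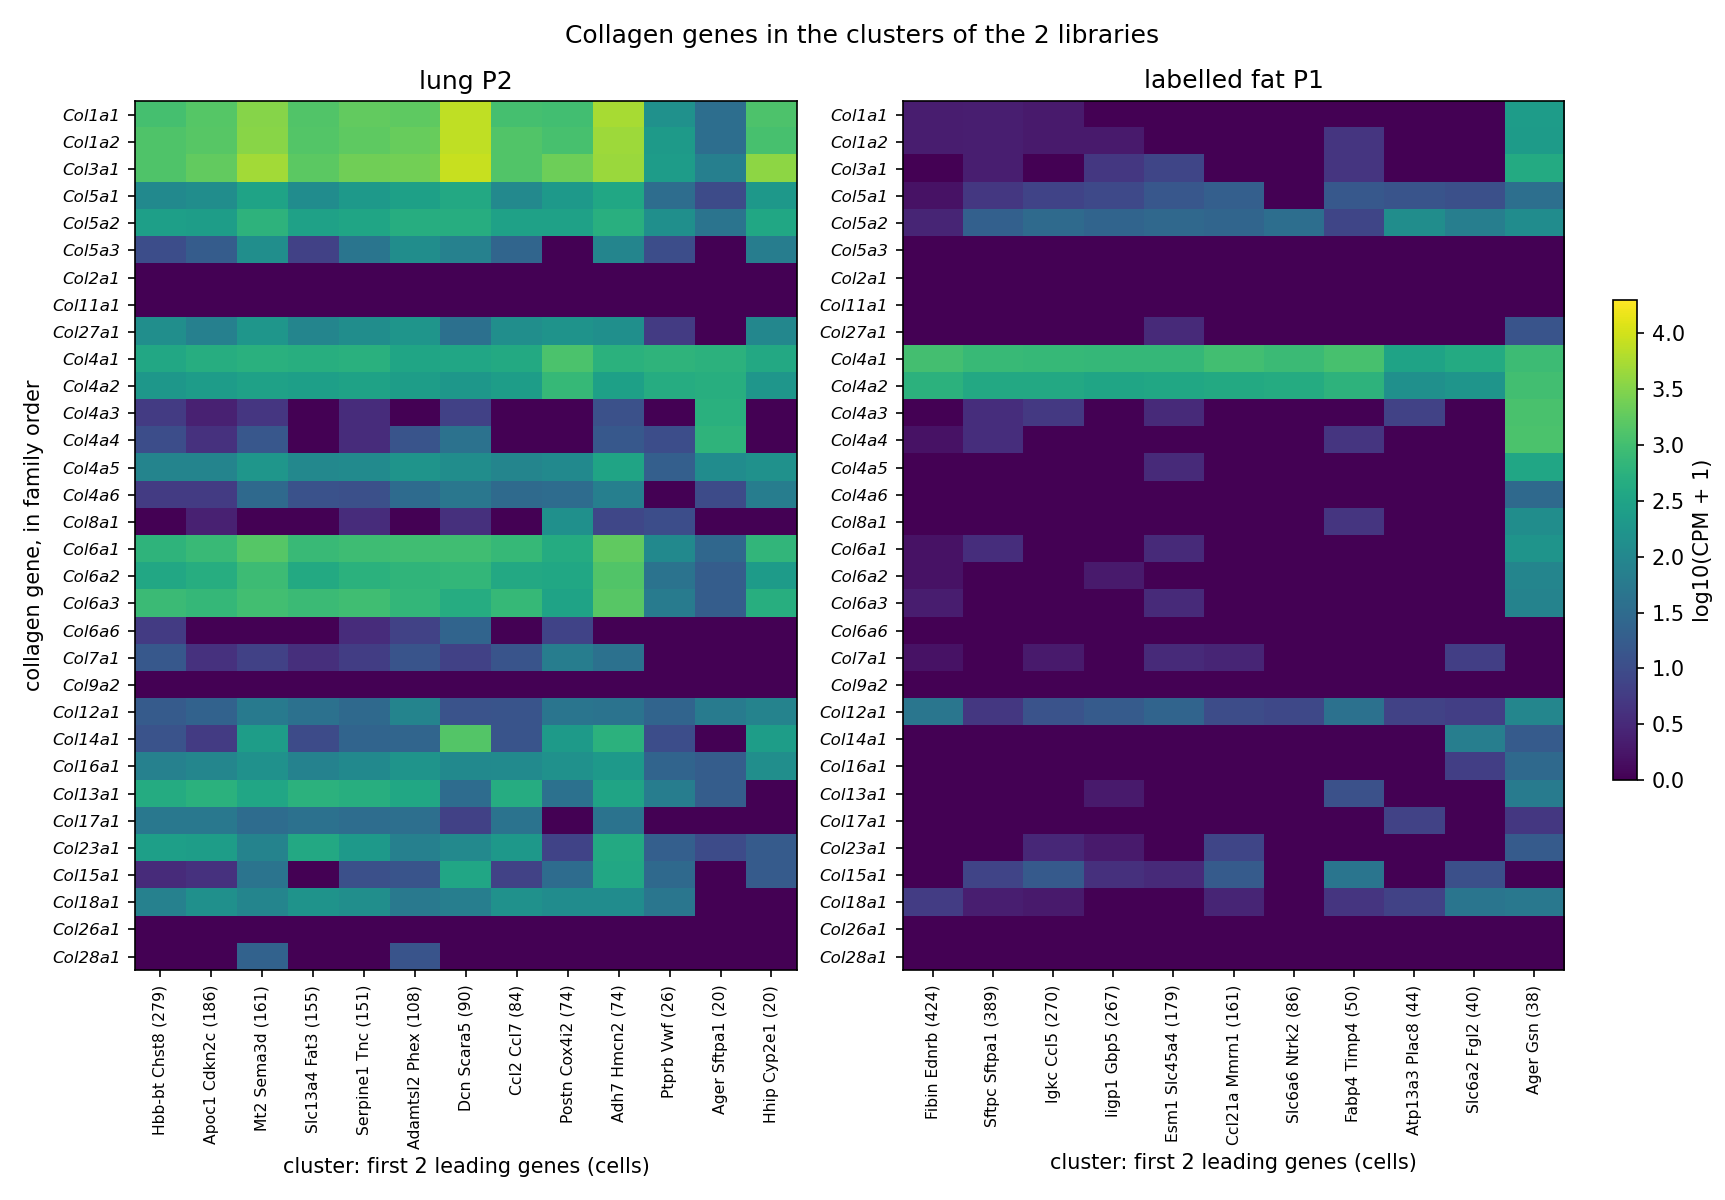
Collagen genes (rows, in family order) in the clusters of lung P2 and of the fat-labelled P1 library (columns, at least 15 cells, largest left, named by 2 leading genes with the number of cells): colour is log10 of CPM plus 1, on 1 scale. Fibrillar and type VI genes fill the fibroblast-like clusters of lung P2; in labelled fat P1 Col4a1 and Col4a2 are bright throughout and most other genes appear in the cluster led by Ager and Gsn.

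In the fat-labelled P1 library, Col4a1 stood at 305 to 1098 CPM over all its clusters, with the lowest value in the cluster led by Atp13a3, Plac8 and Gja5 (44 cells). Most of the fibrillar and type VI UMIs sat in 1 cluster of 38 barcodes led by Ager and Gsn, which made up 1.95% of the cells. It held 55.7% of the fibrillar UMIs of the library (264 of 474), 90.4% of the type VI UMIs (85 of 94) and 12.6% of the type IV UMIs. Col4a3 and Col4a4 stood at 1158 and 1206 CPM there, with 289 of 297 and 301 of 305 of their UMIs. Col3a1 stood at 417 CPM there, with 104 of 113 UMIs. Of its 38 barcodes, 20 had Col4a3 or Col4a4 and no UMI of Col1a1, Col1a2 or Col3a1, 14 had at least 1 of these fibrillar genes and no Col4a3 or Col4a4, 0 had both and 4 had neither. Barcodes with Col4a3 or Col4a4 held 2859 UMIs of Ager and 0 of Pdgfra, and those with fibrillar genes 1 of Ager and 57 of Pdgfra. The split was read off after the values had been seen. In the endothelial-like cells of this library Col1a1 stood at 0.543 CPM and Col3a1 at 1.90, against 9.83 and 17.4 over all its cells.

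Col5a2 was an exception to this in the same library. Its UMIs lay in the endothelial-like clusters too, with 128 CPM in the cluster led by Atp13a3 and Plac8, 67.4 in that led by Slc6a2 and Fgl2 (40 cells), whose leading genes include Vwf, and 1.83 in the largest, led by Fibin and Ednrb (424 cells). The Slc6a2 cluster also held Col14a1 at 67.4 CPM and Col18a1 at 46.6, against 0 UMIs of Col14a1 and 4.89 CPM of Col18a1 in the Fibin cluster. Col15a1 peaked at 45.9 CPM in an unnamed cluster led by Fabp4 and Timp4 (50 cells), of which Fabp4 is the fat-vessel gene named above. Col12a1 was highest among the endothelial-like clusters in the Fibin cluster, at 47.7 CPM. The endothelial-like cells of lung P2 (26 cells) had 634 CPM of Col4a1, 235 of Col3a1 and 136 of Col5a2.

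The 17 genes under 10 CPM in all libraries were Col2a1, Col6a4, Col6a5, Col8a2, Col9a1, Col9a2, Col9a3, Col10a1, Col11a1, Col11a2, Col19a1, Col20a1, Col22a1, Col24a1, Col25a1, Col26a1 and Col28a1. Apart from those in the Apod cluster of fat P2, a few had a place. Col25a1, a membrane-spanning chain known from muscle and nerve, had 44 UMIs in fat P2, 36 of them in the Igfbp2 cluster. Col9a3 had 29 UMIs in fat P2, 11 of them in a cluster of 82 cells led by Wfdc18, Ltf and the milk casein gene Csn3. Col24a1, a fibrillar chain of bone, had 12 UMIs in lung P2 and 12 in fat P2. Col10a1, the hypertrophic cartilage collagen, had at most 1 UMI in any library, and Col22a1 likewise. At this depth a gene at 0 can stand at up to 0.773 CPM in lung P2 and 0.0688 in fat P2. In the lung-labelled P1 library the limit is 2.68 CPM and in the fat-labelled P1 library 0.461. These limits hold for genes at 0 UMIs and are not the lowest level that can be counted. The 1 UMI of Col10a1 in fat P2 was 0.0229 CPM.

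Calls were also made among genes for making collagen. Of 18 genes for hydroxylation and folding, the steps inside the endoplasmic reticulum, 2 of 12 measured were called higher in P2 in lung (Plod2 and P3h3) and 3 of 13 in fat (P3h3, Crtap and Serpinh1), and none lower, with medians of 0.74 and 1.17. With the P1 libraries exchanged, the ratios of Plod2 in lung and of Crtap and Serpinh1 in fat were 1.52, 1.25 and 1.997, all under 4-fold, while Plod2 and P4ha1 were called in fat, at 2.18 and 2.21. Of this list, only P3h3 was called in both tissues both as labelled and exchanged. Serpinh1, the collagen chaperone HSP47, stood at 742 CPM in lung P2, 1468 in fat P2, 360.3 in the lung-labelled P1 library and 268 in the fat-labelled P1 library. Of 11 genes for export and propeptide cleavage, 3 of 7 were higher in P2 in lung and 5 of 8 in fat, and none lower, with medians of 1.42 and 3.15. Pcolce, Pcolce2 and Adamts2 were called in both tissues, and Creb3l1 and Bmp1 in fat. Exchanged, these calls stood and Creb3l1 was called in lung too, at 2.59. Pcolce, which speeds removal of the C-terminal propeptide and is also among the 12 fibroblast markers, stood at 414 CPM in lung P2, 567 in fat P2, 66.2 in the lung-labelled P1 library and 4.15 in the fat-labelled P1 library. Of 7 cross-linking genes, 3 of 5 were higher in P2 in lung and 4 of 6 in fat, with medians of 2.44 and 2.72. Lox, Loxl1 and Loxl2 were called in both tissues and Loxl3 in fat. Tgm2, a transglutaminase, was lower in P2 in fat. Exchanged, Loxl3 in fat was at 1.93 and no longer called, and Pxdn, a peroxidase that cross-links type IV collagen, was called lower in P2 in lung, at -2.10. Lox, the enzyme that starts fibril cross-links, had log2 ratios of 4.11 in lung and 3.18 in fat. The background shares given above for each comparison hold for these counts too. Of the genes of these lists called higher in P2 as labelled, only Pcolce in lung and Serpinh1 in fat also reached 50 CPM in P1. The others could not have been called lower.

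Of 10 receptor and uptake genes, 2 of 4 measured were higher in P2 in lung, Ddr2 and Mrc2, and 3 of 6 in fat, Itga11, Ddr2 and Mrc2. All of these were under 50 CPM in P1, so they could not have been called lower. Of all genes measured, 11.8% were higher in P2 in lung, and 10.1% were higher and 12.4% lower in fat. The receptors Itga1 and Itga2 were lower in P2 in fat, at -5.59 and -2.32. The Itga2 call rests on the P1 label, since with the P1 libraries exchanged its ratio in fat was 0.27, with both libraries under 50 CPM. Exchanged, Itga1 was still lower in P2 in fat, at -3.03, and both genes were called lower in P2 in lung too, at -2.89 and -3.14. Ddr2, a kinase receptor for fibrillar collagen, stood at 231 CPM in lung P2, 504 in fat P2, 9.83 in the lung-labelled P1 library and 7.83 in the fat-labelled P1 library. Itga1, the integrin chain that binds type IV collagen, stood at 161, 16.2, 205 and 1254 CPM across the libraries in that order. Itga11, the chain that binds type I collagen, stood at 12.6, 103, 3.58 and 0.307 CPM. Between the P2 libraries, Itga1 was higher and Itga11 lower in lung, with log2 ratios of 2.70 and -2.32. Of all 4 lists, the other calls between the P2 libraries were Tgm2, higher in lung at 3.68, and Bmp1, a propeptide protease, lower at -2.44. Between the P1 libraries as labelled, Pcolce was higher and Itga1 and Itga2 lower in lung, at 2.43, -2.56 and -2.58. Exchanged, these signs turn.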

How the data were processed

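Sorted cells were run through 10x Genomics 3' v3.1 dual-index chemistry, per the labels' protocols. The values are whole-number UMI counts per gene and barcode as deposited, 1 matrix for each library, with Cell Ranger 3.1.0 and the mm10 build named in the submitters' processing notes. The annotation release is not given in the sources used here. The libraries held 2860, 9025, 1305 and 3783 barcodes (lung P2, fat P2, labelled lung P1, labelled fat P1), and over 10% mitochondrial UMIs were found in 847, 672, 16 and 1645 of them. Barcodes were kept at 1000 UMIs, 500 genes and at most 10% mitochondrial UMIs. Doublets were not removed: Scrublet's own threshold marked 3 of 7898 barcodes of fat P2, so an alternative removed the highest scores at 0.8% per 1000 barcodes. In the lung-labelled P1 library that threshold marked 33 of 652 barcodes and the alternative removed 3. Only there did the alternative remove fewer than the threshold marked.

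Counts were summed over each library's kept barcodes and divided by their total to give CPM. Ratios were taken after adding 10 CPM. The exact Poisson intervals of CPM, the exact Clopper-Pearson intervals of shares and the limit of 3 counts at 0 UMIs cover counting error only. Shares of cells with a gene used cells thinned to 1000 UMIs, which left out no kept cell. Counting at the 3' end has no length term, and reads that near-identical or overlapping genes share could be split by the counting. For the 35 symbols that several gene entries shared, counts were summed. No collagen gene was among them. Clusters came from log-normalized counts, 2000 variable genes without collagen genes, 30 principal components, 15 neighbours and Leiden resolution 1 (scanpy 1.11.5, numpy 2.4.6, scipy 1.17.1, scikit-learn 1.9.0). A cluster was named from markers when at least 3 of a list reached 100 CPM and its leading genes did not go against it, a rule set after the counts had been seen. TMM factors came from edgeR 4.0.16 in R 4.3.3, with no edgeR test. The scripts were tested on simulated data.

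The collagen genes, their classes and the other lists were chosen with earlier results of these data known. Named genes were all collagen genes, the synthesis and receptor genes needed to describe counts of 5 or fewer or with the largest ratios, leading genes of clusters and tissue label genes. Alternatives were another scaling, added CPM, minimum CPM, barcode filter, doublet removal, weighting of cells, exchanged P1 libraries, cells of 1 class, thinning depth and clustering. Leaving out barcodes shared between libraries was added after seeing the data.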

Additional observations from a re-analysis of the deposited data

Results flagged for a closer look

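The ratios of Col1a1, Col1a2, Col3a1 and Col15a1 pointed in opposite directions in lung and fat, or in P2 and P1, under the same contrast. Each side of a contrast has 1 library, so these differences were not tested. Col15a1 had a log2 ratio of P2 over P1 of -1.66 in lung and 4.07 in fat, as labelled. With the P1 libraries exchanged these were 2.21 and 0.19, both above 0. Lung over fat had opposite signs in P2 and in P1. It was -1.22 in P2 and 3.06 in P1 for Col1a1, -1.45 and 2.96 for Col1a2, -1.47 and 3.13 for Col3a1, and -1.85 and 3.88 for Col15a1. The P1 values change sign when those libraries are exchanged, so for these genes the opposite directions rest on the P1 tissue labels that Fabp4 and Foxf1 contradict.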

How the results depend on the processing

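Of 737 values of a measured collagen gene's ratio under an alternative, 705 kept their side of 4-fold, 15 fell below 4-fold, 8 passed it, 8 reversed and 1 moved otherwise. Part of this tally was fixed in advance. A minimum of 20 CPM and no minimum reuse the main ratios, so all 63 values under each had to stay. Exchanging the P1 libraries only turns the sign of lung over fat in P1, which fixed 7 of the 8 reversals. Among those that kept their side, 17 values of 7 genes that were not called changed sign. With TMM scaling they were Col4a1 and Col4a2 for P2 over P1 in fat, at 0.29 and 0.11, Col18a1 for P2 over P1 in lung, at -0.03, and Col16a1 and Col18a1 for lung over fat in P2. With 50 CPM added, 8 genes were higher in P2 in lung, 1 lower in lung among P2 and 3 higher in lung among P1, as ratios of low genes shrink by construction. All genes called in these ways were 207 of 4791, 93 of 4323 and 81 of 4605 measured. With 1 CPM added, 1 gene was lower in P2 in lung (Col8a1, -2.74), as with a mean over cells (1, Col15a1, -2.07) and among cells of 1 class (1, Col8a1, -2.52). Of all genes measured in these 3 settings, 486 of 4791, 499 of 4856 and 506 of 4773 were lower. Among P2, TMM scaling gave 4 genes lower in lung, cells of 1 class 1 and barcodes not shared 1, and the cause of the last change was not tested. All genes lower there were 307 of 4493, 230 of 4306 and 209 of 4308 measured. A minimum of 20 CPM and no minimum gave 2 and 2 genes lower in lung among P1, Col4a3 and Col4a4, where 289 of 7900 and 289 of 31017 of all genes were lower. With the P1 libraries exchanged, 1 gene was lower in P2 in fat (Col13a1), lung over fat in P1 had 0 genes higher and 7 lower, and Col18a1 for P2 over P1 in fat stood at -0.07219. Of all genes measured then, 427 of 4282 were lower in P2 in fat. For lung over fat in P1, 263 of 4605 were higher and 243 lower. The reversed P1 ratios were -3.06 for Col1a1, -2.96 for Col1a2, -3.13 for Col3a1, -2.12 for Col8a1, -3.88 for Col13a1, -3.88 for Col15a1 and -2.86 for Col18a1. TMM scaling moved the median of all genes for P2 over P1 in fat to 0.05, against -0.38. Clustering at resolution 0.5 and with 50 neighbours left Col13a1 in lung P2 at log2 ranges of 1.85 and 1.84 over fibroblast-like clusters, against 3.80. Beyond counting error, 12 class shares of UMIs moved with the barcode filter or doublet removal and 24 did not. With another thinning depth 70 shares of cells moved and 10 did not, and with other clusterings 5 cluster ranges moved and 22 did not. No paired analysis was possible because each group has 1 library and the labels give no replicate numbers.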

Other observations

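Some lower collagen genes had clusters of their own that no comparison above describes. In lung P2 the cluster led by Adamtsl2 and Phex (108 cells) had 85.0 CPM of Col12a1, 170.1 of Col16a1 and 128 of Col5a3. The Apoc1 cluster had 21.3, 92.9 and 16.8 CPM of them. Col4a6, the X chromosome partner of Col4a5, was highest in the Adh7 cluster, at 71.3 CPM, where Col4a5 was highest too. In fat P2, Col7a1 stood at 23.8 CPM in the Igfbp2 cluster, which held 62.8% of its UMIs in that library, and Col27a1 was highest there, at 118 CPM, against 3.28 in the Dmkn cluster. Col12a1 stood at 88.1 CPM in the fat P2 cluster led by Nppc and Chodl (45 cells), whose leading genes include Pax7, a gene of muscle stem cells. Each of these values comes from 1 library, and they were picked after the cluster values had been seen.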
